A study of Mus musculus with 26 samples.

Results

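Gene expression of cell lines that began as granulocyte macrophage progenitors (GMP) and were grown with doxycycline (dox) was set against that of long-term hematopoietic stem cells (LT-HSC) sorted from bone marrow. The 2 groups were chosen by the array titles and hold 8 of the 26 arrays of the series, 4 for each group. The question was which genes of the stem cell programme such lines bring to the level of LT-HSC, and which of these genes stay low.

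All samples came from C57BL/6 mice. The 4 LT-HSC arrays hold wild-type cells sorted by flow cytometry. The 4 arrays of GMP-derived lines come from the lines B6-2, B6-3, F6-6 and B6-1, harvested from liquid medium and labelled dox and 48 h. The labels call all lines, of either origin and with or without dox, immortalized in vitro. For comparison, the 4 arrays of sorted wild-type GMP were used, the arrays of B6-2 and B6-3 lines of LT-HSC origin with dox at 48 h (n = 2), and those of the GMP-derived lines B6-2, B6-3 and F6-6 without dox at 48 h (n = 3). The line B6-1 has no array without dox. The labels name neither the transgene of the lines nor the promoter that drives it, and do not say what the hours count from. Each line array is called a biological replicate, and no source says whether a line is 1 clone or whether each sorted sample came from its own animal, so p-values measure the spread between these samples.

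LT-HSC are the rare, mostly resting cells that can rebuild all of the blood for life, whereas GMP have left that state and make granulocytes and monocytes. The stem cell state is held by a network of transcription factors, among them Mecom, Hlf, Meis1, Erg and Gata2, by receptors that read the marrow niche, such as Kit and Tek, and by brakes on cell division. MLL-AF9 joins the start of Kmt2a (MLL) to the end of Mllt3 (AF9), causes acute myeloid leukaemia, and is known for holding the HOXA genes and Meis1 active in myeloid cells. In models with a dox-inducible fusion, dox switches the fusion on.

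The deposited values are log2 signals, so a difference of 1 is a 2-fold difference. A gene was called at an adjusted p under 0.05 (limma, Benjamini-Hochberg over 19937 genes, 2-sided). Array medians of the 8 arrays lay between 5.81 and 5.907. Over all probe sets, arrays of the GMP-derived lines correlated at 0.986 to 0.99 with each other and LT-HSC arrays at 0.982 to 0.985. The groups correlated with each other at 0.936 to 0.949. Over all genes, 3915 (19.6%) were higher in the lines and 3947 (19.8%) lower. The values of the lines and of LT-HSC did not overlap for 7113 genes (35.7%), in either direction.

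Of 170 genes on 6 lists of stem cell genes, 160 were measured. They lay mostly below LT-HSC in the GMP-derived lines with dox: 116 (72.5%) were lower, 20 (12.5%) higher and 24 passed no threshold, with a median difference of -0.87 beside -0.03 over all genes. For 128 of the 160 the 4 line values and the 4 LT-HSC values did not overlap, a share of 80.0%. In bulk RNA a lower value cannot be told apart between fewer cells of a kind and less RNA in each cell.

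To say which genes came near LT-HSC, each gene was placed by the 95% confidence interval of its difference. A gene "reached" LT-HSC where the whole interval lay above -1, so that a shortfall of 2-fold or more was outside it, and "stayed low" where the whole interval lay below -1. A gene whose interval held -1 was placed between. A gene got no class where its LT-HSC mean was at or under 5.48, the level below which 95% of 1190 olfactory and vomeronasal receptor genes lay in LT-HSC, called the dim limit here (5.34 in the lines). Of 148 stem cell genes with a class, 64 (43.2%) reached LT-HSC, 20 were between and 64 (43.2%) stayed low. Over all 12446 genes with a class, 92.4% reached, 3.86% were between and 3.75% stayed low. Of the 64 that reached, 29 were still called lower, 18 were higher and 17 passed no threshold. In the lines, 3 of these 64 were under the dim limit. A gene little above the limit in LT-HSC has little room to fall, so it can reach with little signal in the lines. Of the 64 that stayed low, 22 were under the dim limit in the lines, so that their signal there could not be told from that of receptor genes, and 20 were more than 3 lower than in LT-HSC.

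**Figure D1:**
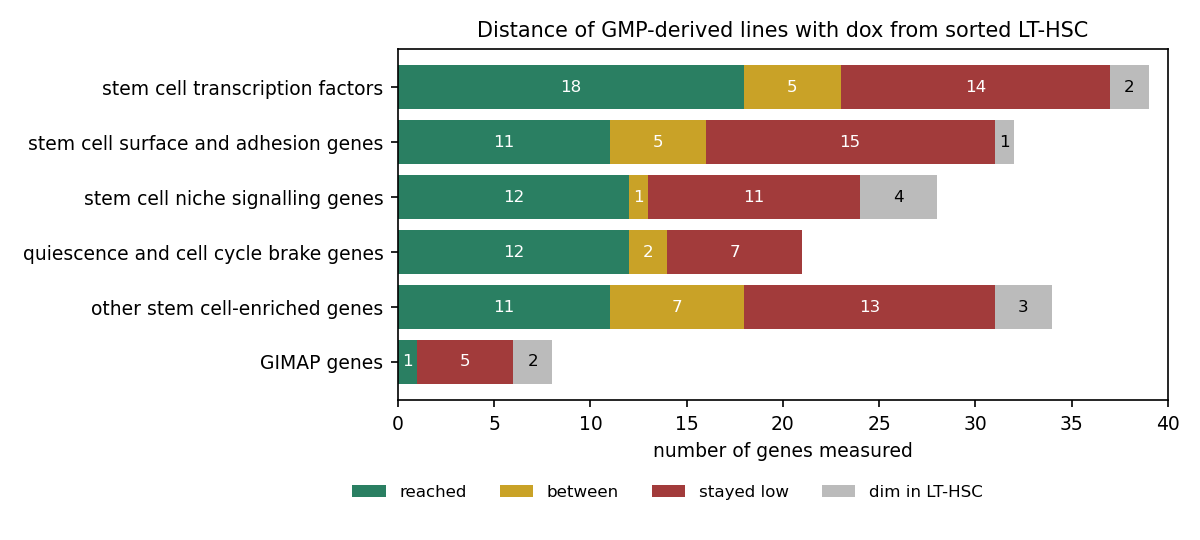
Number of measured stem cell genes on each of the 6 lists (x axis), split by the distance of GMP-derived lines with dox from sorted LT-HSC. Transcription factors divide into 18 that reached and 14 that stayed low, while 5 of the 6 classed GIMAP genes stayed low.

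**Figure D2:**
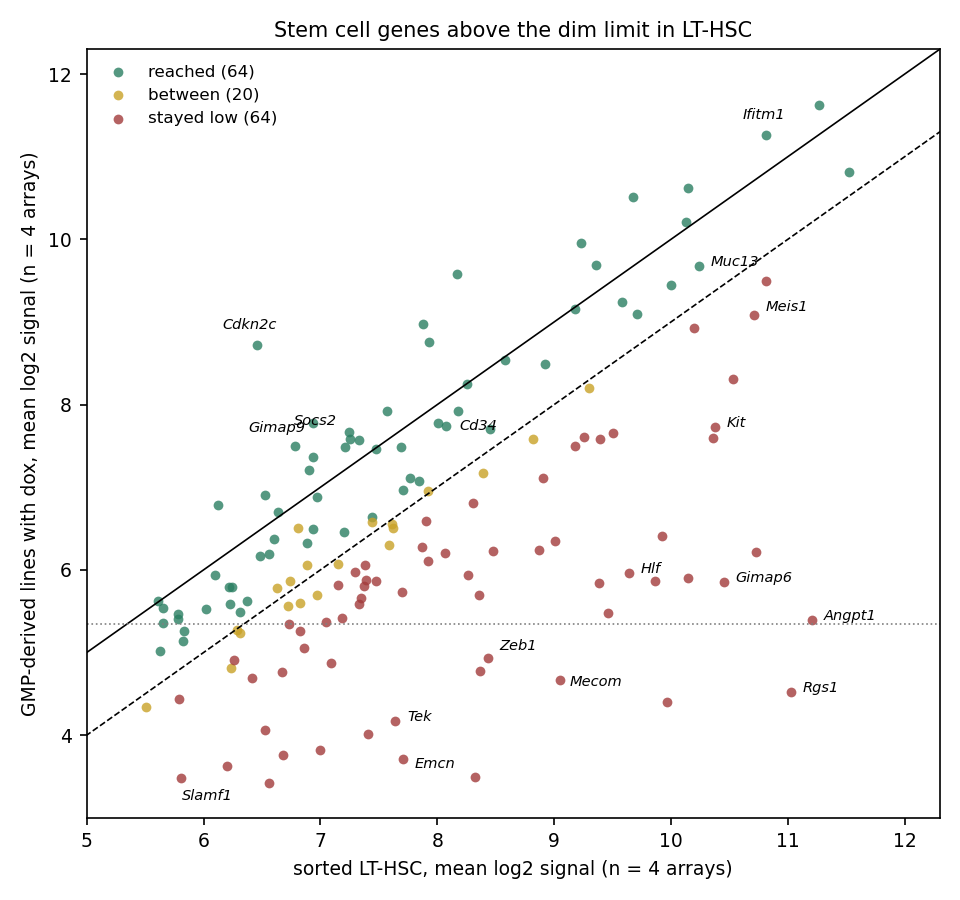
Mean log2 signal of the 148 stem cell genes in sorted LT-HSC (x axis) and in GMP-derived lines with dox (y axis), 4 arrays each, coloured by class. The solid line marks equal values, the dashed line a difference of -1 and the dotted line the dim limit of the lines, 5.34; Rgs1, Angpt1 and Mecom lie far below the dashed line.

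Among 39 stem cell transcription factors, 30 were lower, 4 higher and 5 passed no threshold, and 14 of the 37 classed ones stayed low. Mecom, which encodes the EVI1 zinc finger protein that stem cell renewal depends on, gave 5.26, 4.43, 4.32 and 4.68 in the lines B6-2, B6-3, F6-6 and B6-1, and 9.02, 9.04, 9.2 and 8.95 in LT-HSC. All 4 lines were under the dim limit and all LT-HSC arrays far above it. The difference was -4.38 with a standard error (SE) of 0.208 (adjusted p = 1.75e-14), and a further probe set of the gene gave -2.44. Hlf, a bZIP factor that marks stem cells, read 5.94, 5.9, 5.91 and 6.13 in the lines against 9.76, 9.77, 9.72 and 9.32 in LT-HSC, a difference of -3.67 (SE 0.0956, adjusted p = 2.52e-19). The groups stood more than 3 apart. Zeb1, a zinc finger repressor also known from epithelial-mesenchymal transition, read 4.82, 5.07, 5.08 and 4.74 against 8.37, 8.32, 8.55 and 8.5, a difference of -3.50 (SE 0.132, adjusted p = 2.23e-16).

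Klf12, Zfp521 and Ndn, all under the dim limit in the lines, differed by -3.40, -2.45 and -2.32. The nuclear factor I genes Nfia and Nfix, whose proteins support stem cell survival, stayed low at -1.77 and -1.68. Other factors of the stem cell network stayed low but above the dim limit: Erg at -1.65, Gata2 at -1.60, Prdm16 at -1.32 and Etv6 at -1.27. Gata2 read 6.28, 6.05, 6.45 and 6.3 in the lines and 8.05, 7.89, 7.72 and 7.83 in LT-HSC, with no overlap. Mycn (-1.23), Rora (-1.28) and Foxo1 (-0.85) were called lower but their intervals held -1.

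Meis1, the homeodomain partner of HOXA9, stood apart from the other factors that stayed low. It read 9.13, 8.93, 9.33 and 8.95 in the lines, 10.61, 10.58, 10.83 and 10.82 in LT-HSC, and 7.15, 6.83, 7.07 and 7.03 in sorted GMP. The lines lay between both sorted populations without touching either, with a difference of -1.63 from LT-HSC (SE 0.155, adjusted p = 5e-09) and of 2.07 from GMP (adjusted p = 7.31e-10).

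**Figure D3:**
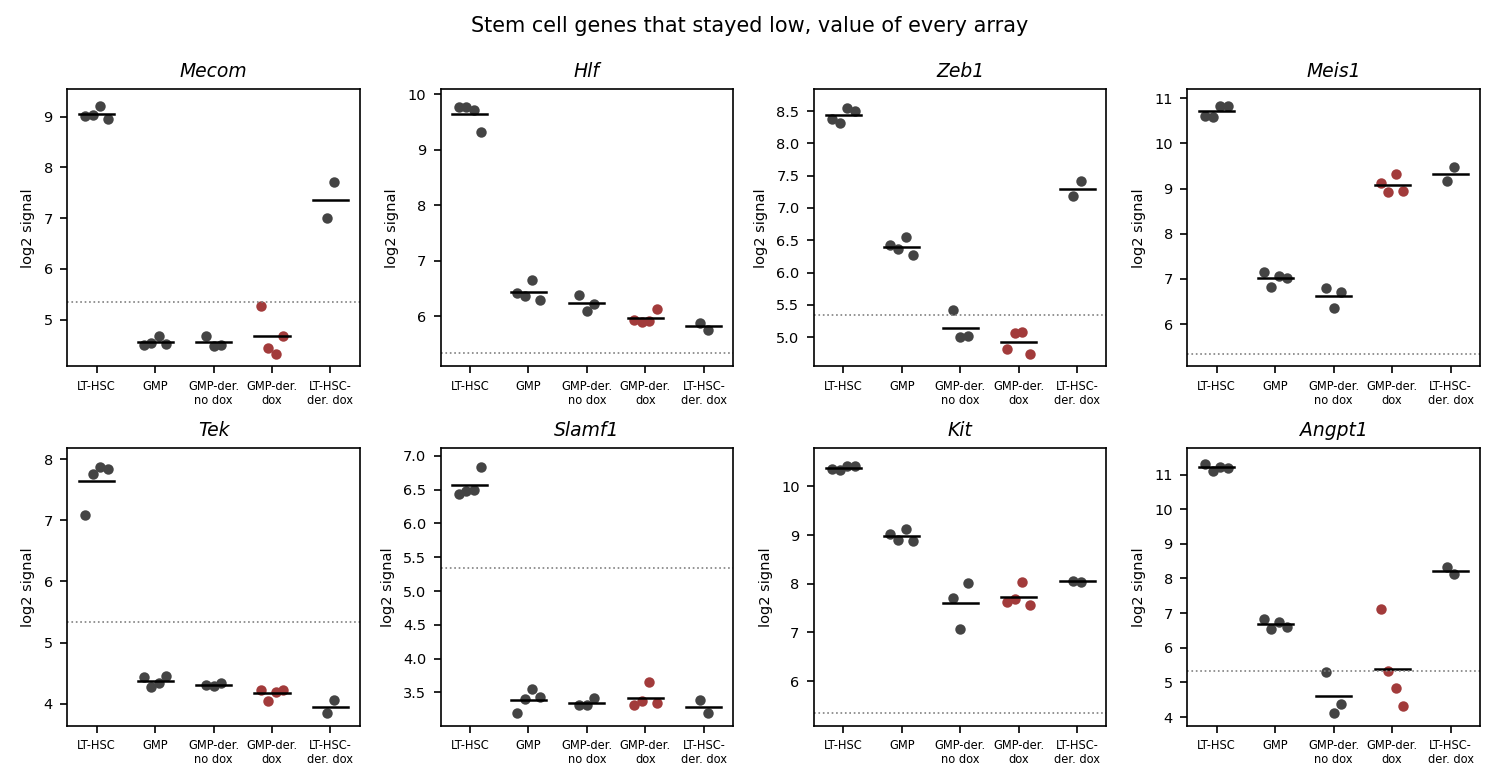
Log2 signal of every array (points) and group means (bars) for 8 stem cell genes that stayed low; red points are the GMP-derived lines with dox and the dotted line is their dim limit, 5.34. Tek and Slamf1 sit near sorted GMP in all lines, and Hlf was called lower than in GMP, at -0.47. Meis1 sits between GMP and LT-HSC, and Mecom, Zeb1 and Angpt1 are higher in lines of LT-HSC origin.

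HOXA genes, which set positional identity in the embryo and drive self-renewal in blood, reached LT-HSC in all 6 cases listed. Hoxa9 read 7.57, 7.44, 7.46 and 7.46 in the lines and 7.21, 7.19, 7.17 and 7.27 in LT-HSC. Every line was above every LT-HSC array, by a mean of 0.27 (SE 0.0805, adjusted p = 0.00818), a call that was lost after quantile normalization (0.18, adjusted p = 0.089). Hoxa7 and Hoxa10 were also called higher, by 0.31 and 0.43. Hoxa5 read 7.84, 7.81, 7.91 and 7.53 in the lines and 8.2, 7.69, 8.04 and 8.09 in LT-HSC. These values overlapped and their difference of -0.23 passed no threshold, with a 95% interval from -0.58 to 0.11. Hoxa3 and Hoxa6, from a list of MLL fusion targets, differed by -0.01 and 0.05 and passed no threshold either. Of the HOXB genes, Hoxb4 (-0.44) and Hoxb5 (-0.60) reached but were called lower, and Hoxb5 was under the dim limit in the lines.

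Hhex, Bmi1 and Satb1 reached without a call, at -0.02, 0.00 and 0.84. Lyl1, a bHLH partner in the stem cell network, was higher by 0.35. Its relatives in that network were called lower but stayed within 2-fold: Runx1 by -0.43, Fli1 by -0.56, Lmo2 by -0.62 and Tal1 by -0.74.

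To place sequence beside these outcomes, 6 promoters are shown, each the 250 bases before the start of the gene in RefSeq, build GRCm38.p6, 5′ to 3′ on the strand of the gene. Hoxa5 (chr6:52204588-52204837, minus strand), Hoxa9 (chr6:52227371-52227620, minus) and Gimap9 (chr6:48675885-48676134, plus) reached LT-HSC. Meis1 (chr11:19018970-19019219, minus), Hlf (chr11:90390918-90391167, minus) and Gimap6 (chr6:48708245-48708494, minus) stayed low. Capitals mark, on either strand, matches to a core of MEIS sites, TGACAG, an ETS site as bound by ERG and ETV6, CCGGAA, and the E-box bound by ZEB1, CAGGTG.
Hoxa5: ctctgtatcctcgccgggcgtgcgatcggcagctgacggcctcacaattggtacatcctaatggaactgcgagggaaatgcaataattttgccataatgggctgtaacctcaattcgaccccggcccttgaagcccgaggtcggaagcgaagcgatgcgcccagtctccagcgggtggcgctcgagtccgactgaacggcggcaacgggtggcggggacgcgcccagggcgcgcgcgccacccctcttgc
Hoxa9: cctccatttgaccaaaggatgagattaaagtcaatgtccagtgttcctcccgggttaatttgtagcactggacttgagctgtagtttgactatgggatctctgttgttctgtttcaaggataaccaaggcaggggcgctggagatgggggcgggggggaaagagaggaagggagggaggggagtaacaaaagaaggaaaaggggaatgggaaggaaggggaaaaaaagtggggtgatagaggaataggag
Gimap9: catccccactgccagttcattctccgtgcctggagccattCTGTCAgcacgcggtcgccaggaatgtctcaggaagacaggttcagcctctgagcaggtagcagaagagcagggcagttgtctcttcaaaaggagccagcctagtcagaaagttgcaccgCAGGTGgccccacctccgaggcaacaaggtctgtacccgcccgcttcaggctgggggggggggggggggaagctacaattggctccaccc
Meis1: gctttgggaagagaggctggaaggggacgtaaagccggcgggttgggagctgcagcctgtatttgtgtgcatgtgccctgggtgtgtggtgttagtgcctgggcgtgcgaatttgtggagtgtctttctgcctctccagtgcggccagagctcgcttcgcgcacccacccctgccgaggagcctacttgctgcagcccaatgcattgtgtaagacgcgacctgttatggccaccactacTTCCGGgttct
Hlf: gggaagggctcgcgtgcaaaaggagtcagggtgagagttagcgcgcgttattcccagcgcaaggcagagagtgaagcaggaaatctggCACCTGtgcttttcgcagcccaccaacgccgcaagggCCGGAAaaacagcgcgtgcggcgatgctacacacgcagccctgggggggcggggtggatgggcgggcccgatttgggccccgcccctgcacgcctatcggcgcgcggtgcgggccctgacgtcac
Gimap6: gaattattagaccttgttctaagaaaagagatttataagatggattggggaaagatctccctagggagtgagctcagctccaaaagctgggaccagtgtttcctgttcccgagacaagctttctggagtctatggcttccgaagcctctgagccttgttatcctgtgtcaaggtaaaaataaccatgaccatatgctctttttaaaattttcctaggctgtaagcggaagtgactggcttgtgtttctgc
Among 32851 RefSeq promoters of this length, 15.9% hold TGACAG, 12% CCGGAA and 17.2% CAGGTG. Both HOXA promoters and Gimap6 hold none of the 3 motifs. Gimap9 holds 1 MEIS core and 1 E-box, Meis1 holds 1 ETS site and Hlf holds 1 ETS site and 1 E-box, with no overlap between matches. A match is a description of letters and not a bound site.

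Surface and adhesion genes of stem cells were 24 lower, 2 higher and 6 without a call among 32 measured, with a median of -1.23, and 15 of 31 classed genes stayed low. Tek, the angiopoietin receptor that ties stem cells to their niche, read 4.23, 4.04, 4.19 and 4.23 in the lines and 7.09, 7.76, 7.88 and 7.84 in LT-HSC. All lines were under the dim limit and the difference was -3.47 (SE 0.118, adjusted p = 3.33e-17). Slamf1 (CD150), used to sort LT-HSC, read 3.31, 3.38, 3.65 and 3.34 against 6.44, 6.48, 6.5 and 6.83, a difference of -3.14 (SE 0.0983). Procr, the endothelial protein C receptor, differed by -1.91 and was under the dim limit in every line.

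Kit, the stem cell factor receptor, stayed well above the dim limit at 7.62, 7.69, 8.04 and 7.56 in the lines but below 10.35, 10.34, 10.41 and 10.43 in LT-HSC. The difference was -2.66 (SE 0.152, adjusted p = 4.9e-13), and the lines were also below sorted GMP, which read 9.03, 8.9, 9.13 and 8.87, by -1.26 (adjusted p = 1.26e-06). The adhesion receptors Adgrl4 (-4.51) and Adgrg1 (-3.99) and the sialomucin Emcn (-4.00) had the largest differences of this list. Esam, Eng and the efflux pump Abcg2 stayed low at -1.80, -1.67 and -2.63.

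Of the 11 surface genes that reached LT-HSC, 2 were called higher. Cxcr4, the receptor for the niche chemokine CXCL12, was higher by 0.47 (adjusted p = 0.00011) and Cd93, a C-type lectin-like receptor, by 0.33, a call lost after quantile normalization (0.15, adjusted p = 0.305), without F6-6 (0.26, adjusted p = 0.0671) or without either of 2 LT-HSC arrays (0.27 in both fits). Cd34 read 7.78, 8.17, 8.41 and 6.61 in the lines and 7.64, 8.27, 8.39 and 7.99 in LT-HSC. Its values overlapped and the difference of -0.33 passed no threshold (95% interval -0.82 to 0.15), with B6-1 lowest of all. Sorted GMP read 9.11, 8.9, 9.14 and 8.99 for Cd34, above every line and every LT-HSC array. Reaching LT-HSC was thus no gain over GMP for this gene. Cd81, a tetraspanin, was lower, at -0.34, yet within 2-fold. Cd48, a marker that LT-HSC lack, was 8.85 to 9.22 in the lines and 4.51 to 5.52 in LT-HSC, a difference of 3.89 (SE 0.153, adjusted p = 5.53e-16). Flt3, a receptor of early progenitors, was lower by -0.84 with an interval that held -1.

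Niche signalling genes were 18 lower, 4 higher and 6 without a call among 28, and 11 of 24 classed genes stayed low. Angpt1, the TEK ligand that LT-HSC also make, read 7.11, 5.33, 4.85 and 4.31 in the lines and 11.3, 11.11, 11.23 and 11.19 in LT-HSC. The lines were far from LT-HSC but also far from each other, and the difference was -5.81 (SE 0.428, adjusted p = 5.29e-11). Rgs1, a brake on chemokine receptor signalling, had the largest decrease of all genes that met the naming rule, -6.51, and was under the dim limit in the lines. Grb10, Tgfbr3, Smad7 and Ghr stayed low at -2.32, -1.97, -1.74 and -1.35. Socs2, a brake on cytokine signalling, read 7.29, 7.79, 7.22 and 7.54 in the lines and 7.18, 7.62, 7.68 and 7.41 in LT-HSC. It reached LT-HSC at -0.02 (95% interval -0.38 to 0.35), although a further probe set gave -0.53. Tgfbr1 and Il6st, signalling receptors for TGF-beta and the IL-6 family, were higher by 0.34 and 0.83. For Il6st, F6-6 read 7.88, within the 7.66 to 8.05 of LT-HSC, whereas B6-2, B6-3 and B6-1 read 8.86, 9.29 and 9.

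Quiescence genes moved in both directions. Among 21 measured, 14 were lower, 4 higher and 3 without a call, with 12 reached and 7 stayed low. The cyclin-dependent kinase inhibitor Cdkn2c (p18) was higher, at 8.75, 8.7, 8.85 and 8.57 in the lines and 6.16, 6.98, 6.13 and 6.56 in LT-HSC, by 2.26 (SE 0.174, adjusted p = 1.17e-10). Cdkn1b (p27) was higher by 0.73, but a further probe set of the gene gave -0.34 and the mean of both passed no threshold (0.20). Cdkn1c (p57), the inhibitor most tied to stem cell rest, was lower at -0.63 and reached by the class rule. Btg2 (-3.51), Txnip (-2.22), Nr4a1 (-3.98) and Nr4a2 (-4.24) stayed low. Nr4a1 and Btg2 belong to genes that also respond within minutes to stress or handling. All 17 genes of a list of such immediate early genes were lower in the lines, with a median of -1.87, and their mean level was 6.18 to 6.46 in the lines and 8.31 to 8.58 in LT-HSC. Fosb differed by -4.49 and Jun by -3.89. The part of tissue handling in the values of Nr4a1, Nr4a2, Btg2 and Rgs1 was not tested.

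Of 30 proliferation genes, 20 were higher, 3 lower and 7 without a call. Cdk1, which drives entry into mitosis, read 9.61, 9.52, 9.54 and 9.67 in the lines and 8.37, 8.71, 8.49 and 8.37 in LT-HSC, with no overlap, a difference of 1.10 (SE 0.0818). Aurka and Rrm2 were higher by 1.46 and 1.44. Ccnd1, a cyclin of early G1, was lower at -1.16.

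Other stem cell-enriched genes were 25 lower, 6 higher and 3 without a call among 34. Myct1 (-5.57), a regulator of endocytosis in stem cells, Mmrn1 (-4.84), a multimerin of platelets and endothelium, and the aldehyde dehydrogenase Aldh1a1 (-3.59) were under the dim limit in the lines. Msi2, an RNA-binding protein of stem cells, read 7.52, 7.55, 8 and 7.56 in the lines and 9.46, 9.37, 9.64 and 9.56 in LT-HSC, a difference of -1.85 (SE 0.115). Ifitm1, an interferon-induced membrane protein, was higher at 10.97, 11.45, 11.36 and 11.27 in the lines than at 10.99, 10.75, 10.83 and 10.69 in LT-HSC, by 0.45 (adjusted p = 0.000261), with 1 line within the LT-HSC range and a further probe set at 0.80. Nupr1, a stress-response regulator, was higher by 1.10.

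The GIMAP genes, small GTPases of lymphocyte and stem cell survival that lie in one cluster, were 7 lower and 1 without a call among 8. Gimap6 read 5.86, 5.93, 5.75 and 5.88 in the lines and 10.51, 10.26, 10.62 and 10.41 in LT-HSC, a difference of -4.59 (SE 0.116, adjusted p = 1.43e-19). Its cluster neighbour Gimap9 read 7.58, 7.52, 7.63 and 7.56 against 7.06, 7.19, 7.52 and 7.56. These overlapped, and Gimap9 was the only GIMAP gene that reached LT-HSC, at 0.24 (95% interval -0.13 to 0.62). Gimap5 (-2.92), Gimap1 (-2.66), Gimap8 (-1.73) and Gimap4 (-1.36) stayed low. GIMAP genes resemble each other in sequence, and whether a probe set reads a relative was not tested.

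Genes of the fusion and its targets gave a mixed picture. Of 23 MLL fusion targets measured, 7 (30.4%) were higher, 8 (34.8%) lower and 8 without a call, beside 19.6% higher and 19.8% lower over all genes. Of 22 classed targets, 18 (81.8%) reached, a smaller share than the 92.4% of all classed genes. Meis1 and Mecom stayed low (9.09%, beside 3.75% of all classed genes). The list shares the HOXA genes with the transcription factors. Eya1, a phosphatase and coactivator, read 8.75, 8.16, 9.06 and 7.65 in the lines and 8.58, 8.24, 8.76 and 8.22 in LT-HSC, at -0.05 with an interval from -0.57 to 0.48. Myb (-0.04) and Jmjd1c (-0.08) reached without a call, although a further probe set of Jmjd1c gave 0.77 and the mean of its probe sets was higher by 0.34. The mouse genes Kmt2a and Mllt3 stayed low at -1.40 and -2.76; which part of each gene its probe set reads, and whether it reads the fusion, was not analysed here. Of 27 MLL and polycomb genes, 12 were lower, 4 higher and 11 without a call, with Tet1 at -3.63 and Aff1 at 1.14. Further probe sets of these genes gave -3.17 and -2.49 for Tet1 and 0.26 for Aff1.

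Against sorted GMP, the cells of the same origin, the 160 stem cell genes were 33 higher and 33 lower (20.6% each), with a median difference of -0.06. Over all genes, 10% were higher and 9.76% lower in that comparison. Sorted GMP themselves were lower than LT-HSC for 124 of the 160 genes and higher for 12, where 15.3% of all genes were lower and 16.8% higher. By the same class rule 55 of the 148 genes in sorted GMP reached LT-HSC, 25 were between and 68 stayed low.

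Of the 64 genes that reached LT-HSC in the lines, 23 were above sorted GMP, and for 9 of these sorted GMP had stayed low: Socs2, Ifitm1, Gimap9, Hoxa5, Hoxa9, Muc13, Igf2r, Cd81 and Trp53inp1. Socs2 read 5.13, 4.64, 4.07 and 4.77 in GMP, all under their dim limit of 5.41, and the lines were 2.80 higher (adjusted p = 3.84e-11). Ifitm1 read 8.62, 8.52, 8.51 and 8.21 in GMP, and the lines were 2.80 higher (adjusted p = 2.29e-16). Hoxa5 read 5.97, 4.92, 5.9 and 5.33 in GMP and Hoxa9 read 5.94, 5.65, 6.11 and 5.85, and the lines lay 2.24 and 1.59 above them. None of these 4 genes overlapped between lines and GMP. They were chosen by their call in this comparison, so the lack of overlap adds no support. Gimap9 was 2.32 above GMP, the cell-surface mucin Muc13 1.36 and Igf2r, the receptor that clears IGF2, 1.17.

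**Figure D4:**
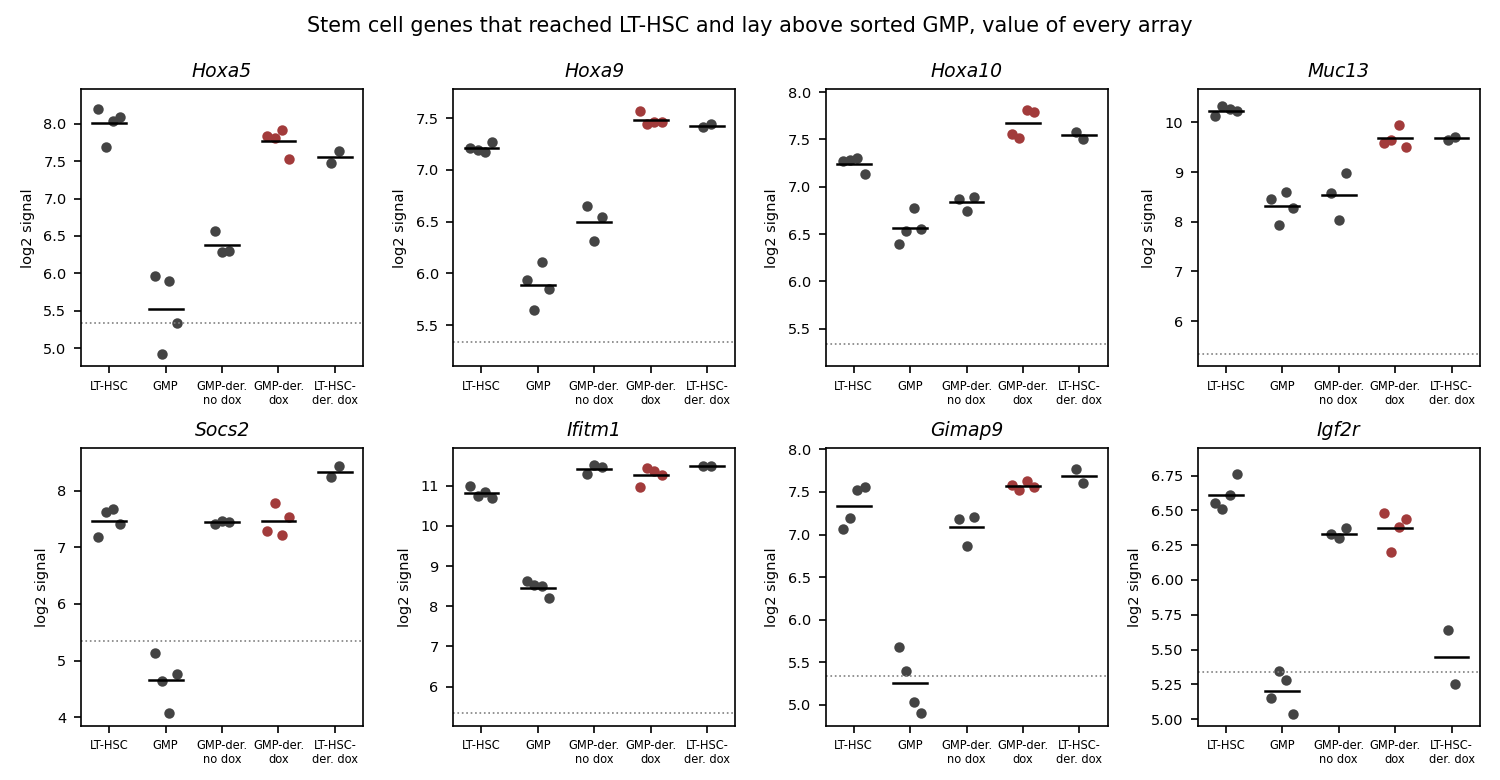
Log2 signal of every array (points) and group means (bars) for 8 stem cell genes that reached LT-HSC and lay above sorted GMP; red points are the GMP-derived lines with dox and the dotted line is their dim limit, 5.34. The upper row is higher with dox than without, whereas in the lower row the lines without dox already lie near LT-HSC.

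Of the 64 genes that stayed low, 21 were below sorted GMP, 4 above it (Meis1, Ghr, Ctnnal1 and Gimap6) and 39 without a call. Adgrl4 (-2.63), Btg2 (-2.60), Alcam (-2.08) and Zeb1 (-1.47) were among those below. Zeb1 read 6.42, 6.36, 6.55 and 6.28 in GMP, above every line. Mecom, at 4.49, 4.53, 4.67 and 4.51 in GMP, differed from the lines by 0.12 (adjusted p = 0.768), with both under the dim limit.

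GMP-derived lines with dox (n = 4) were set against those without it (n = 3, none for B6-1), without pairing by line. They differed in 37 of the 160 stem cell genes: 18 (11.2%) were higher with dox and 19 (11.9%) lower. Over all genes, 5.75% were higher with dox and 5.18% lower. Meis1 rose most, by 2.46 (adjusted p = 1.51e-09), from 6.81, 6.36 and 6.71 without dox to the 8.93 to 9.33 given above. Cd34 rose by 2.07, from 5.68, 5.53 and 5.8. All 6 HOXA genes on the lists were higher with dox, by 1.39 for Hoxa5, 0.99 for Hoxa9 and 0.84 for Hoxa10. In the lines B6-2, B6-3 and F6-6 taken alone, Meis1 was higher with dox by 2.32, 2.57 and 2.62 and Hoxa5 by 1.27, 1.53 and 1.61. Cd34 was higher by 2.1, 2.64 and 2.6 in these lines.

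Of the 9 genes above that were low in GMP and reached in the lines, 3 were higher with dox (Hoxa5, Hoxa9 and Muc13), 1 was lower (Trp53inp1, -0.90) and 5 had no call. Socs2 differed by 0.01 with dox (95% interval -0.38 to 0.41), Ifitm1 by -0.16 (-0.36 to 0.05) and Igf2r by 0.04 (-0.20 to 0.28). Among genes that stayed low, Plxdc2 (-2.32), Alcam (-1.87), Btg2 (-1.55) and Txnip (-1.24) were lower with dox. Alcam, an adhesion molecule, read 7.91, 7.8 and 8.5 without dox, near the 7.94 to 8.19 of LT-HSC, and 6.11, 6.22, 6.3 and 6.17 with it. Hprt, a purine salvage gene often used for reference, was 10.67 to 10.77 with dox and 7.31, 7.56 and 7.92 without, a difference of 3.11 (adjusted p = 2.36e-11), and was 1.30 above LT-HSC.

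Lines of LT-HSC origin with dox, classed in the same way against the same LT-HSC arrays, had 63 genes reached, 28 between and 57 stayed low of 148. With only 2 arrays in this group its intervals are wider, which by itself places more genes between. These counts therefore do not show which lines lie closer to LT-HSC. In that comparison 14.6% of all genes were higher and 14.6% lower. Tested directly between lines of the 2 origins, 14 of the 160 stem cell genes (8.75%) were lower in GMP-derived lines and 3 (1.88%) higher. Over all genes, 1.17% were lower and 0.943% higher. Lines of both origins carry the names B6-2 and B6-3. Whether a shared name links 2 lines is not given, and the fit did not pair them. Leaving out 1 of the 2 arrays of LT-HSC origin left 9 genes lower (without B6-2) or 6 (without B6-3). In these fits the spread comes from the other groups alone, and the lone array is assumed to vary like them. Zeb1, Mecom, Adgrg1, Alcam, Gimap6, Itga6 and Igf2r were called in each fit with 1 array of either group, or of LT-HSC, left out, under that assumption for the group of LT-HSC origin.

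Mecom read 7.01 and 7.72 in the lines of LT-HSC origin, above every GMP-derived line, a difference of -2.69 (SE 0.255, adjusted p = 5.36e-07). Zeb1 read 7.19 and 7.41, with a difference of -2.37 (SE 0.162, adjusted p = 1.91e-09). Angpt1 (8.32 and 8.13) and Gem, a small GTPase (7.19 and 8.27), differed by -2.83 and -2.86, but the Angpt1 call was lost without either array of LT-HSC origin (adjusted p up to 0.0561) and the Gem call without B6-3 (adjusted p = 0.0704). Flt3, from the fusion target list, read 7.85 and 8.55 in lines of LT-HSC origin and 4.98 to 5.78 in GMP-derived lines, a difference of -2.80 (adjusted p = 3.72e-06). Igf2r went the other way, at 6.2 to 6.48 in GMP-derived lines and 5.64 and 5.25 in lines of LT-HSC origin, a difference of 0.93 (adjusted p = 0.000129).

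**Figure D5:**
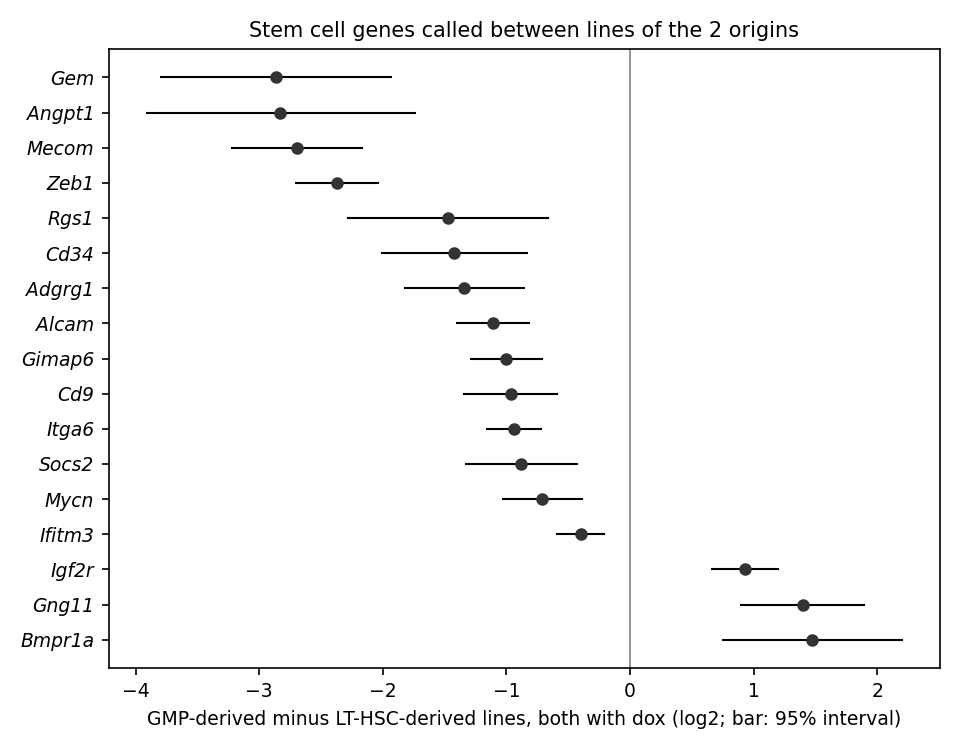
Difference in log2 signal between GMP-derived lines (n = 4) and LT-HSC-derived lines (n = 2), both with dox, for the 17 stem cell genes called in that comparison (points, with 95% intervals as bars). Mecom and Zeb1 lie at -2.69 and -2.37, and Igf2r, Gng11 and Bmpr1a lie above 0.

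The 4 GMP-derived lines gave a similar picture of distance. Over the 148 genes the median difference of a single line from the LT-HSC mean was -1.11 for B6-2, -0.99 for B6-3, -1.04 for F6-6 and -1.13 for B6-1, and 73 to 78 genes lay more than 2-fold below LT-HSC in each. The median SD of a gene among the lines was 0.13, beside 0.159 among LT-HSC arrays. B6-1 was the lowest of the 4 lines for 64 genes and the highest for 15, whereas F6-6 was the highest for 58. Only 14 of the 148 genes spread over more than 1 among the lines. Satb1, a chromatin organiser, spread most, at 9 and 9.31 in B6-2 and B6-3 and 6.56 and 6.24 in F6-6 and B6-1, on either side of the 6.75 to 7.28 of LT-HSC, and without B6-1 it was called higher (1.35, adjusted p = 0.029). Thy1 was highest in F6-6 (9.03, with the others at 6.65 to 7.24), and so was the lipoprotein receptor Vldlr (7.9, with the others at 5.84 to 6.42), which was called lower without that line (-0.78, adjusted p = 0.0393). Cd34 was lowest in B6-1. Angpt1 was highest in B6-2.

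Genes of the GMP and granulocyte programme were high in the same lines. Of 23 primary granule and GMP genes, 19 (82.6%) were higher than in LT-HSC, none was lower and 4 had no call, with a median of 1.86. Of all genes, 19.6% were higher and 19.8% lower. Ctsg, the granule protease cathepsin G, read 11.45, 11.41, 11.32 and 11.41 in the lines and 6.52, 5.52, 5.58 and 5.51 in LT-HSC, a difference of 5.61 (SE 0.16, adjusted p = 1.43e-18). Elane and Mpo, a further granule protease and the peroxidase of azurophilic granules, differed by 4.65 and 3.33. Of 16 late neutrophil genes 8 were higher and 1 lower. Itgam (CD11b) was 7.69 to 8.27 in the lines and 4.66 to 5.35 in LT-HSC. Against sorted GMP, 10 of the 23 granule and GMP genes were lower in the lines and 2 higher.

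The lists of other lineages checked what the sorted arrays hold. Of 11 megakaryocyte genes 9 were lower in the lines, with Pf4, a platelet chemokine, at 4.59 to 4.81 in the lines and 10.09 to 10.7 in LT-HSC. The mean level of that list was 5.42 to 5.53 in the lines and 6.57 to 6.88 in LT-HSC. It includes Vwf and Itga2b, which the stem cell lists hold too, and what part cells of that lineage had in the LT-HSC values was not tested. Of 17 lymphoid genes 12 were under the dim limit in LT-HSC, and Cd79a, Rag1 and Il7r had no call. Of 13 stromal and endothelial genes 7 were lower and 1 higher, with Cdh5 and Plvap dim in LT-HSC. Of 9 erythroid genes 6 were lower and 1 higher, with Car2 at -5.01.

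Genes of culture and metabolism also differed. Of 13 cholesterol synthesis genes 12 were higher in the lines and 1 had no call, with Fdps at 2.41 and Idi1 at 2.19, although a further probe set of Idi1 gave 0.82. Of 19 genes of amino acid synthesis and the ATF4 response 15 were higher and none lower, with Cth at 3.12 and Mthfd2 at 2.82. Of 16 interferon response genes 13 were lower, with Rtp4 at -3.34 and Oasl2 at -2.90, and Bst2 was higher. Sorted GMP against LT-HSC gave 13 of the 16 interferon genes lower, beside 15.3% of all genes. The lines against sorted GMP gave 6 lower, beside 9.76% of all genes. Of the 19 ATF4 and amino acid genes, 12 were higher with dox than without, beside 5.75% of all genes. The part of these lists in the stem cell genes' values was not tested.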

How the data were processed

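Gene expression was measured on an Affymetrix gene-level array. Per the labels' protocols, a micro-scale kit gave the RNA, and cDNA amplified from it was fragmented and labelled. The authors deposited log2 signals for 34760 probe sets per array; limma and R 3.1.1 are named in the submitters' processing notes, and the background correction, summarisation, normalization and genome build are, in the sources used here, not given. That the scale is log2 follows from the range of the values. The number of arrays limits the precision.

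From these values, 21640 probe sets carried 1 gene symbol, 1321 several and 11799 none in the platform annotation, and 21553 annotated entries matched RefSeq (GRCm38.p6) by gene ID. Each of 19937 genes was represented by its probe set with the highest mean, with no filter; 954 genes had more than 1. All 26 arrays in 8 groups entered one fit in limma 3.58.1 and R 4.3.3 (lmFit, contrasts.fit, eBayes; 23.3 total degrees of freedom), without a block. A gene was called where its 2-sided p, adjusted by Benjamini-Hochberg across the whole table, was under 0.05. The code was tested on simulated data. Replicate numbers did not pair the arrays: deviations of same-numbered arrays from their group means correlated at 0.047, 0.022, -0.099 and -0.007.

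The 25 gene lists (504 genes, 463 measured) and the class rule were chosen with earlier results of these data known. A gene on 2 lists is counted once in the total over lists. Named genes are the 10 largest increases and decreases among called genes whose groups do not overlap, up to 4 called decreases, 4 called increases and 4 uncalled reached genes per list, a fixed set of stem cell and fusion genes, and list members inside a count or range. Some list members were not analysed here. Alternatives were other normalizations, a filter on dim genes, the 8 arrays alone, blocks, array weights, another prior, means of probe sets and leaving out each array.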

Additional observations from a re-analysis of the deposited data

Results flagged for a closer look

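Some genes differed in their distance from LT-HSC between lines of GMP and of LT-HSC origin, both with dox, in a test of that difference itself (limma, adjusted over all genes; n = 4 and 2). Lower in GMP-derived lines were Gem (-2.86), Angpt1 (-2.83), Flt3 (-2.80), Mecom (-2.69), Zeb1 (-2.37), Tet1 (-1.88), Rgs1 (-1.47), Cd34 (-1.42), Adgrg1 (-1.34), Car2 (-1.19), Ccnd1 (-1.16), Alcam (-1.11), Gimap6 (-1), Itga6 (-0.94), Socs2 (-0.88) and Mycn (-0.71). Higher were Bmpr1a (1.47), Gng11 (1.40), Igf2r (0.93) and Jmjd1c (0.33). With each of the 10 arrays of these lines and of LT-HSC left out in turn, Rgs1 was called in 0 fits (difference -1.94 to -1). Socs2 was called in 5 fits and Bmpr1a in 6. Mycn, Cd34, Angpt1, Gem and Gng11 lost their call only in fits with a single array of LT-HSC origin, which cannot measure the spread of that group. Flt3, Tet1, Car2, Ccnd1 and Jmjd1c were not part of this check.

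In 21 of 252 checks of a gene in a group of 4 arrays, 1 array stood apart from the other 3 by Dixon's 95% limit, which chance passes in about 1 of 20 such checks. Among the GMP-derived lines with dox, F6-6 stood apart for Msi2 (8, the others up to 7.56), Tgfbr3 (6.17, the others up to 5.61), Jmjd1c (10.35) and Cd79a (4.25). B6-1 stood apart for Abcg2 (5.86, the others from 6.33) and Hlf (6.13), and B6-2 for Hoxa9 (7.57). Among LT-HSC arrays, replicate 1 stood apart for Tek (7.09, the others from 7.76), Ctsg (6.52, the others up to 5.58), Grb10 (8.03), Il6st (7.66), Jun (10.19) and Rag1 (4.53). Replicate 2 stood apart for Kmt2a (9.94) and Etv6 (10.12), replicate 3 for Hprt (9.84), Itgam (5.35) and Zfp521 (6.87), and replicate 4 for Hlf (9.32), Slamf1 (6.83) and Hoxa10 (7.13).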

How the results depend on the processing

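Counts of stem cell genes by class moved little over 17 alternative settings: reached 57 to 66 (leave-one-out 60 to 65), between 19 to 26 and stayed low 59 to 67, beside 64, 20 and 64. Requiring a difference of at least 1 left 1455 called genes (764 higher, 691 lower), 5 stem cell genes higher and 78 lower. Leaving out 1 array gave 7106 to 7922 called genes over LT-HSC (3656 to 3807 higher, 3450 to 4115 lower), with 18 to 21 stem cell genes higher. Between lines of both origins leaving out 1 array gave 110 to 355 called genes beside 421, 6 to 14 stem cell genes lower in GMP-derived lines beside 14, and 1 to 4 higher beside 3. Without the LT-HSC-derived array of B6-2 the counts were 237, 9 and 2, and without that of B6-3 110, 6 and 1, so the 2 arrays of that group limit this comparison. With the replicate number as a block, although the numbers do not pair the arrays, 6830 genes were called over LT-HSC and 63, 21 and 64 stem cell genes reached, were between and stayed low; with the line as a fixed block over the 3 lines that have both arrays, 2172 genes were called between dox and no dox, and with the line as a random block over all arrays 2389, beside 2179. The block moved no count by over 1.5 times. Jmjd1c turned from -0.08 to 0.34 with the mean of its probe sets. The number of arrays limits precision, and values under the dim limit understate differences.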

Other observations

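Outside the gene lists, the largest increase belonged to Hpgd, which encodes the enzyme that inactivates prostaglandin E2. It read 11.57, 11.52, 11.68 and 11.62 in the GMP-derived lines with dox, 4.53, 6.01, 5.12 and 4.92 in LT-HSC, and 5.49, 5.76, 5.48 and 5 in sorted GMP. The lines were thus apart from both sorted populations, by 6.45 (adjusted p = 8.23e-08) and 6.17 (adjusted p = 9.71e-07). Lines without dox read 10.77, 10.7 and 11, and lines of LT-HSC origin with dox 10.65 and 9.79. Gpr141, an orphan receptor, was higher than LT-HSC by 5.74 and than sorted GMP by 1.29 (adjusted p = 1.67e-05). Atp8b4, a phospholipid-transporting ATPase, was higher than LT-HSC by 5.58 but differed from GMP by -0.12 (adjusted p = 0.5). Bex1, an adaptor-like protein known from neurons, was the largest decrease outside the lists, 8.83 to 9.7 in LT-HSC and 3.43 to 4.15 in the lines, a difference of -5.52 (adjusted p = 6.37e-14).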
